A study of Mus musculus with 29 samples.

Results

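The genes described here are 8 interferon-stimulated genes, namely the 5 genes of the ISG15 conjugation cycle (Isg15, Uba7, Ube2l6, Herc6 and Usp18), Rsad2, which encodes viperin, its chromosomal neighbour Cmpk2, and Ifi44. They were chosen by symbol, and each symbol mapped to 1 of the 48709 Ensembl identifiers in each count table. Poly(A) RNA was sequenced in 3 experiments in which anti-miR-99b, a locked nucleic acid inhibitor of miR-99b-5p, was compared with sc-control, a negative-control oligonucleotide. In the first, PFC (prefrontal cortex) tissue was taken from 3-month-old C57BL/6J mice 5 days after lipid nanoparticles with the oligonucleotide had been injected (3 mice with anti-miR-99b, 3 with sc-control). In the second, primary microglia from CD1 pups of postnatal day 1 were treated in culture for 2 days (4 libraries against 4). In the third, CD1 microglia of postnatal day 1 were treated for 48 h, moved onto untreated CD1 cortical neurons of embryonic day 17.5 and sequenced together with them after 48 h of co-culture (7 anti-miR-99b libraries, 8 sc-control libraries). The mature miR-99b-5p is not captured by these libraries, so the counts do not check the inhibition itself. Total counts were between 21324156 and 37901110 in the 29 libraries. Levels are given as CPM (each gene's counts scaled to a common library size of 1000000, with TMM-normalised library sizes within each experiment), and the log2FC is anti-miR-99b over sc-control throughout.

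ISG15 is a ubiquitin-like protein that cells make in response to type I interferon and attach to other proteins. Uba7 encodes the E1 enzyme that activates it, Ube2l6 the E2 enzyme that carries it, Herc6 the main E3 ligase in mice, and Usp18 the protease that removes ISG15 and also restrains signalling from the interferon receptor. Viperin is a radical-SAM enzyme that makes an antiviral nucleotide from CTP, and CMPK2 is a mitochondrial nucleoside monophosphate kinase that helps to supply such nucleotides. IFI44 is an interferon-induced cytoplasmic protein. In the brain, microglia are a main cell type in which such genes are switched on, although neurons and astrocytes also respond to interferon.

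All positions are those of GRCm38, the assembly also called mm10. Isg15 (ENSMUSG00000035692) lies at chr4:156199424-156200818, Usp18 (ENSMUSG00000030107) at chr6:121245906-121270917, Herc6 (ENSMUSG00000029798) at chr6:57581000-57664632, Uba7 (ENSMUSG00000032596) at chr9:107975505-107984060, Ube2l6 (ENSMUSG00000027078) at chr2:84798828-84810335 and Ifi44 (ENSMUSG00000028037) at chr3:151730922-151749960. Rsad2 (ENSMUSG00000020641, chr12:26442746-26456452) and Cmpk2 (ENSMUSG00000020638, chr12:26469204-26479837) are transcribed away from each other, with 12752 bases between their starts and no other annotated gene in between. Exons of Herc6 share 1269 bases with Gm45193 and those of Uba7 share 233 bases with Gm20661, both on the same strand, and Usp18 shares 124 bases with the antisense gene Gm44148, so reads in these stretches could not be assigned with certainty.

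The inhibited miRNA is shown with its seed (bases 2 to 8) in capitals, since the seed is the part that pairs with target mRNAs. The sequence is from RefSeq (GRCm38.p6, chr17:17830194-17830215, plus strand).
mmu-miR-99b-5p: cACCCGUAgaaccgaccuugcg
The 7 letters complementary to the seed, TACGGGT, were searched in the 3' untranslated regions of GENCODE M21. They occurred in none of the 8 genes, against 220 of the 15356 genes with an annotated 3' untranslated region that were tested in any experiment (1.43%).

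Promoter windows from 250 bases before to 50 bases after the RefSeq start (GRCm38.p6) were given for 7 of the 8 genes, without Usp18. On either strand, the core of the interferon-stimulated response element, GAAANNGAAA, was found in the windows of Isg15 and Rsad2, that is in 2 of 7, and in 3.44% of the 32851 mouse windows. A looser form, NAAANNGAAA, which includes the core and was chosen after the windows had been read, was also found in Uba7 and Ifi44 (4 of 7, against 10.5% of all windows). TTCNNNGAA, the gamma-activated site, was found in 0 of the 7 windows and in 8.30% of all windows. The 4 windows with a match are shown to let the positions and surroundings of the matches be compared, and that of Cmpk2 because it lies opposite Rsad2. Capitals mark the looser form, and each sequence is given on the strand of its gene. In Isg15 (chr4:156200769-156201068, minus strand) 3 overlapping matches began at -78, -72 and -66 from the start.
Isg15: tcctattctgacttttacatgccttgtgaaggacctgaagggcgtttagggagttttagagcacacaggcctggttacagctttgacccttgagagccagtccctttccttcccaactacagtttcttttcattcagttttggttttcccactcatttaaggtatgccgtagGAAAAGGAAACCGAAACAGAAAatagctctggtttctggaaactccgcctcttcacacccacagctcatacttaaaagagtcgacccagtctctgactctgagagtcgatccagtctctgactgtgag
In Uba7 (chr9:107975317-107975616, plus strand) the match, on the opposite strand, began at -27.
Uba7: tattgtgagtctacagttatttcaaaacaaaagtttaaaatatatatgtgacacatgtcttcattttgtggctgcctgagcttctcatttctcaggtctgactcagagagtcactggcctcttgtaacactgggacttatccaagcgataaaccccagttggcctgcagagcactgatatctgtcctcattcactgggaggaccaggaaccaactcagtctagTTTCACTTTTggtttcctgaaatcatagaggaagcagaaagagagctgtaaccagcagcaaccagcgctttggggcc
In Rsad2 (chr12:26456403-26456702, minus strand) the core on the opposite strand began at -120, and a looser match at -108.
Rsad2: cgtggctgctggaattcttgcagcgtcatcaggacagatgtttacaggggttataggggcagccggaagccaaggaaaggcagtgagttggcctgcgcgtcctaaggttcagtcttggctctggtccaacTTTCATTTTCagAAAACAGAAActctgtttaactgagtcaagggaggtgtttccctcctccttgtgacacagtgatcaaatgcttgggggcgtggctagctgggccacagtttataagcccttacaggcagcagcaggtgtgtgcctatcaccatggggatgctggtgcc
In Ifi44 (chr3:151749861-151750160, minus strand) the match, on the opposite strand, began at -55.
Ifi44: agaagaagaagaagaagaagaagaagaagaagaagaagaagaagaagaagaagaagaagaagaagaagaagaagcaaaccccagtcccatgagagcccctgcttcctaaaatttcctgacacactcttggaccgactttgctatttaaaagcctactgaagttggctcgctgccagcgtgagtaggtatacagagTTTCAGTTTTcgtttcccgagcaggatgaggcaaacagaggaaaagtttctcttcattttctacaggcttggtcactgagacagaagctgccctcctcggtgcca
In Cmpk2 (chr12:26468965-26469264, plus strand) these letters were absent from the window, as they were from those of Herc6 and Ube2l6.
Cmpk2: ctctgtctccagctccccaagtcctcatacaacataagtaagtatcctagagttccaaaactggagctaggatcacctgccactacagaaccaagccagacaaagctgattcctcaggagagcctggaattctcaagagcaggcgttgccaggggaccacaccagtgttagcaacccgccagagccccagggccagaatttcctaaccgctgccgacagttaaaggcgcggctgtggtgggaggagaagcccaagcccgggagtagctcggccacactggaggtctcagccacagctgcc

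The 3 kinds of sample held these genes at different levels. Levels between genes are given as CPM per kilobase of merged exon in the sc-control libraries, and levels set across experiments are descriptions, since the 3 tables were normalised separately and differ in strain, age and cell type. In microglia Isg15 was highest at 19.0 ± 3.3 (SD, n = 4), followed by Ube2l6 at 17.2 ± 2.3, whose libraries overlapped those of Isg15. Uba7 stood at 10.2 ± 0.60, apart from its neighbours on both sides. Rsad2 (4.73 ± 1.1), Usp18 (4.24 ± 0.92) and Cmpk2 (4.06 ± 1.0) had overlapping libraries, and Herc6 (2.07 ± 0.24) and Ifi44 (0.292 ± 0.085) lay below them without overlap.

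In the 2 neuron-rich kinds of sample Cmpk2 headed the order instead. It reached 7.15 ± 0.51 in PFC tissue (n = 3), overlapping Isg15 at 5.69 ± 1.9, and 8.07 ± 0.42 in the co-culture (n = 8), apart from Isg15 at 5.00 ± 1.0. Ube2l6 followed at 3.39 ± 0.40 and 3.45 ± 0.48. Lower in PFC tissue were Herc6 (2.39 ± 0.25), Uba7 (1.304 ± 0.18), Usp18 (1.28 ± 0.62), Rsad2 (0.851 ± 0.15) and Ifi44 (0.457 ± 0.27), with overlap between neighbours from Uba7 downwards. In the co-culture the order was Usp18 (2.38 ± 0.58), Rsad2 (0.812 ± 0.12), Herc6 (0.571 ± 0.057), Uba7 (0.2999 ± 0.046) and Ifi44 (0.258 ± 0.094), where Rsad2 overlapped Herc6 and Uba7 overlapped Ifi44. Ube2l6 also overlapped Isg15 above it and Usp18 below it there. On the CPM scale Uba7 was 33.9 times as high in microglia as in the co-culture and 7.80 times as high as in PFC tissue, while Cmpk2 in microglia was 0.503 and 0.568 of its level in these samples. Herc6 was at a similar CPM in microglia and PFC tissue (ratio 0.865) and lower in the co-culture (microglia over co-culture 3.63).

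**Figure D1:**
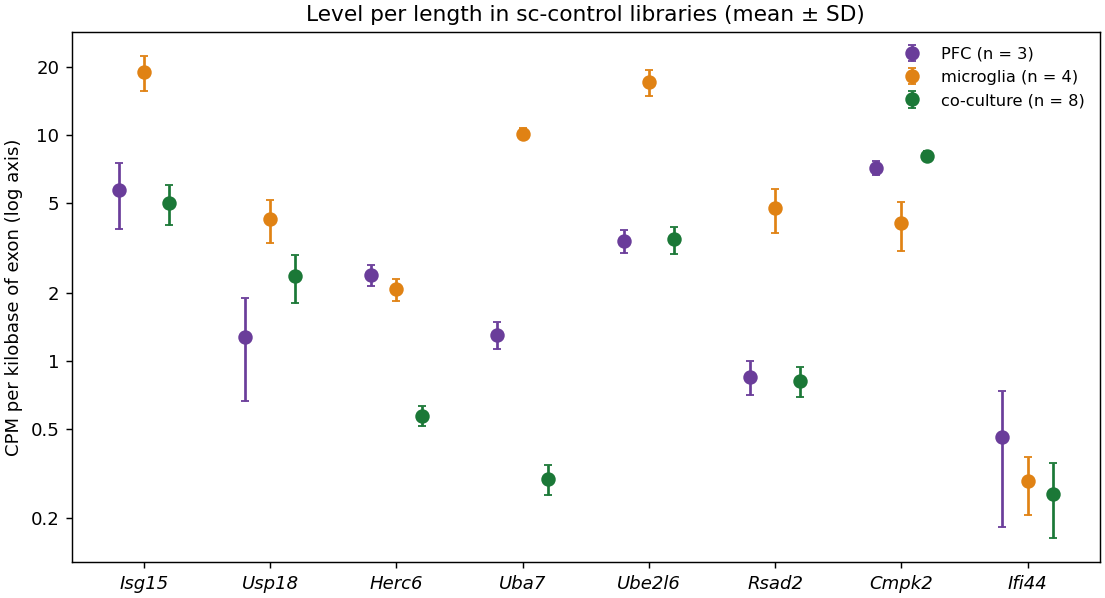
Level per length of the 8 genes in sc-control libraries of PFC tissue (n = 3), microglia (n = 4) and co-culture (n = 8), in CPM per kilobase of exon on a log axis, with points for means and bars for SD. Uba7 runs from 0.2999 in the co-culture to 10.2 in microglia, while Cmpk2 is lowest in microglia.

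For Isg15, the ubiquitin-like modifier itself, the 3 PFC libraries with anti-miR-99b held 8.37, 6.75 and 10.4 CPM, and those with sc-control 4.11, 2.99 and 5.80 CPM. The groups did not overlap, and the log2FC was 0.98 ± 0.23 (SE), with an adjusted p-value of 0.305 by edgeR's quasi-likelihood test. In microglia the anti-miR-99b libraries held 21.97, 15.7, 18.5 and 21.2 CPM and the sc-control libraries 17.2, 15.8, 12.5 and 12.1 CPM, so that 3 of the 4 treated libraries lay above every control. Isg15 rose there by a log2FC of 0.45 ± 0.10 (adjusted p-value of 0.0495). In the co-culture the values ran from 3.87 to 5.48 CPM (median 4.13) after anti-miR-99b and from 2.35 to 4.76 CPM (median 3.78) in controls, with wide overlap and a log2FC of 0.22 ± 0.11 (adjusted p-value of 0.395). In bulk RNA, more cells of a type and more RNA per cell cannot be told apart, here or for any gene that follows.

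Uba7, the activating enzyme, gave 11.4, 13.4 and 14.4 CPM in PFC tissue with anti-miR-99b and 8.10, 7.96 and 10.1 CPM with sc-control. Again the groups did not overlap, and the log2FC was 0.58 ± 0.13 with an adjusted p-value of 0.281, the lowest of the 8 genes in this tissue. In microglia, where Uba7 had its highest level, the anti-miR-99b libraries held 75.2, 68.8, 71.0 and 76.6 CPM and the controls 72.8, 66.9, 69.1 and 63.3 CPM. The groups overlapped, the log2FC was 0.10 ± 0.04 and the adjusted p-value was 0.667. In the co-culture Uba7 lay between 2.22 and 3.26 CPM (median 2.43) after anti-miR-99b and between 1.43 and 2.36 CPM (median 2.00) in controls, and 4 of the 7 treated libraries exceeded every control. The log2FC was 0.37 ± 0.11 and the adjusted p-value 0.0940, above the threshold of 0.05 used for this experiment.

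Ube2l6, the conjugating enzyme, was measured at 7.07, 8.86 and 9.24 CPM in PFC tissue with anti-miR-99b and at 6.14, 6.48 and 7.66 CPM in controls. Only 1 treated library fell within the range of the controls, and the log2FC was 0.31 ± 0.14 (adjusted p-value of 0.649). The microglia libraries gave 42.1, 37.8, 39.7 and 41.1 CPM against 40.5, 34.9, 31.2 and 30.7 CPM, where 1 control library lay among the treated ones (log2FC 0.24 ± 0.06, adjusted p-value of 0.141). In the co-culture the range was 6.57 to 9.27 CPM (median 7.94) against 5.57 to 7.76 CPM (median 7.43), with a log2FC of 0.18 ± 0.08 (adjusted p-value of 0.336).

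Herc6, the ligase, had the smallest log2FC of the conjugation genes in PFC tissue and in the co-culture. Its PFC libraries held 19.0, 24.7 and 30.1 CPM after anti-miR-99b and 20.7, 21.1 and 24.9 CPM after sc-control, and the lowest value of all 6 belonged to a treated mouse (log2FC 0.15 ± 0.15, adjusted p-value of 0.803). The microglia values were 24.3, 20.8, 21.1 and 22.6 CPM against 21.8, 20.0, 18.5 and 16.6 CPM (log2FC 0.22 ± 0.07, adjusted p-value of 0.340). In the co-culture 4.85 to 6.30 CPM (median 5.40) stood against 4.401 to 6.09 CPM (median 5.33), nearly the same range (log2FC 0.05 ± 0.07, adjusted p-value of 0.824).

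Usp18, the protease that takes ISG15 off again, had a PFC log2FC close to those of Rsad2 and Isg15. The treated mice had 6.25, 5.32 and 10.7 CPM and the controls 2.65, 2.502 and 5.56 CPM, so that only the highest control reached the lowest treated value (log2FC 1.05 ± 0.33, adjusted p-value of 0.541). Leaving out single mice moved it between 0.68 (without treated replicate 3) and 1.53 (without control replicate 4). In microglia the libraries held 23.3, 13.2, 17.6 and 19.2 CPM against 14.8, 13.1, 10.2 and 9.24 CPM, and 3 treated libraries lay above all controls. Usp18 rose there by a log2FC of 0.66 ± 0.13 (adjusted p-value of 0.0272). The co-culture values were 6.69 to 8.80 CPM (median 7.44) and 4.17 to 9.17 CPM (median 7.03), where the highest library of all was a control (log2FC 0.20 ± 0.11, adjusted p-value of 0.483).

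**Figure D2:**
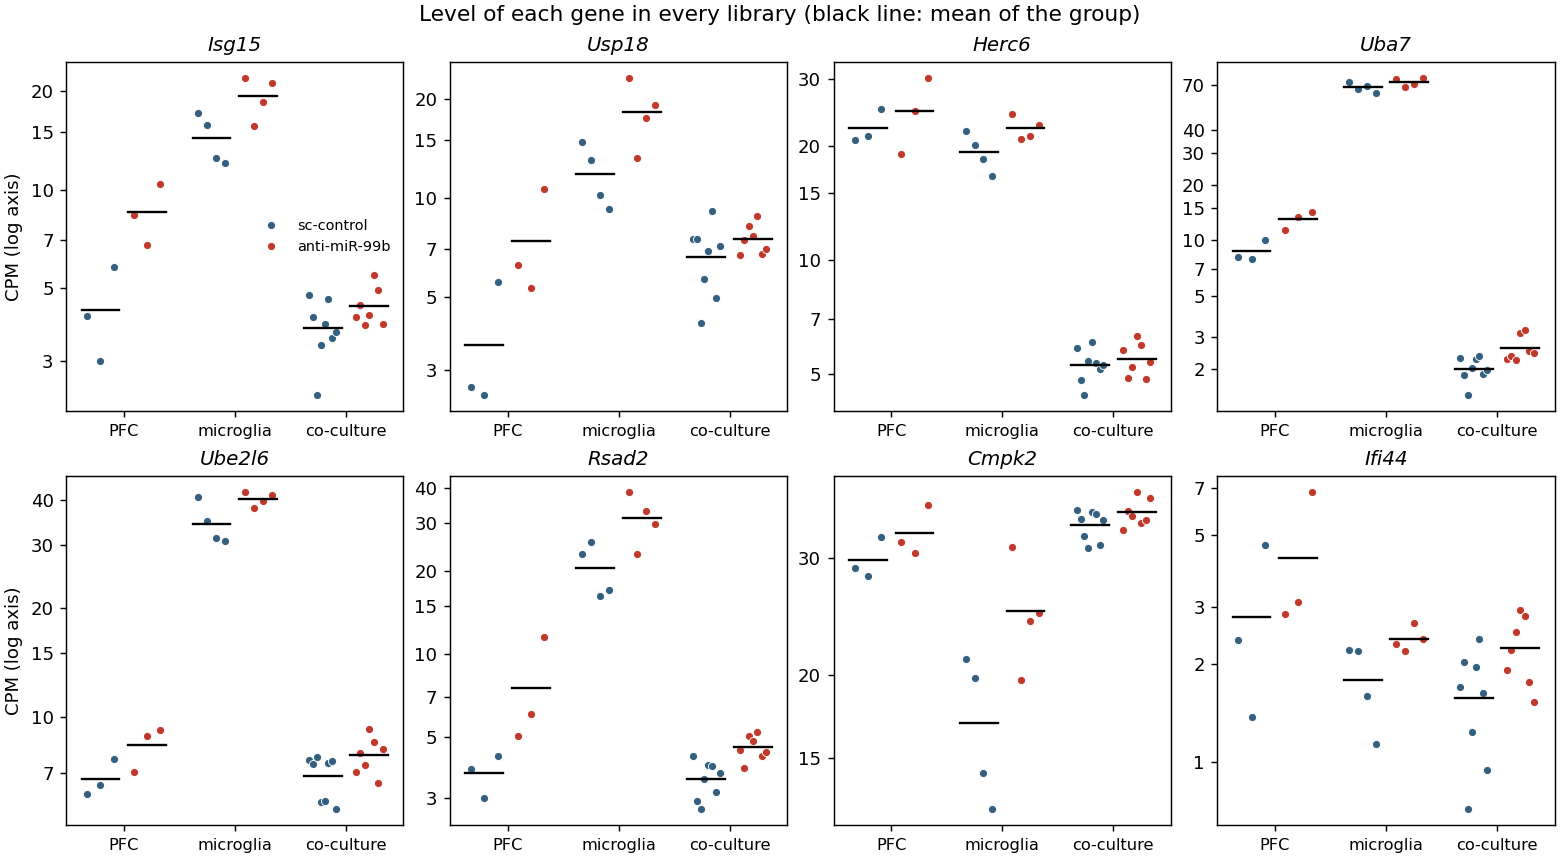
CPM of the 8 genes in all 29 libraries, on log axes that differ between panels, with blue points for sc-control, red points for anti-miR-99b and black lines for group means. The mean after anti-miR-99b lies above that of sc-control in all 24 pairs of groups, and only for Isg15, Uba7 and Rsad2 in PFC tissue do the points not overlap.

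Rsad2, the viperin gene, was the gene that passed the threshold in both culture experiments. In PFC tissue anti-miR-99b gave 5.06, 6.04 and 11.5 CPM and sc-control 3.83, 2.99 and 4.25 CPM. These groups did not overlap, and the log2FC was 1.03 ± 0.28 with an adjusted p-value of 0.395. Without treated replicate 3, the library at 11.5 CPM, it was 0.58. In microglia 38.9, 23.004, 33.1 and 29.7 CPM stood against 23.1, 25.6, 16.3 and 17.02 CPM, with 1 treated library below 2 of the controls, and Rsad2 rose by a log2FC of 0.62 ± 0.13 (adjusted p-value of 0.0272). The co-culture libraries ran from 3.85 to 5.22 CPM (median 4.48) after anti-miR-99b and from 2.74 to 4.25 CPM (median 3.61) in controls, and 6 of the 7 treated libraries lay above every control. There Rsad2 rose by a log2FC of 0.39 ± 0.09 (adjusted p-value of 0.0254).

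Cmpk2, the neighbour of Rsad2, had its largest log2FC in microglia. In PFC tissue its libraries held 31.7, 30.4 and 36.1 CPM after anti-miR-99b and 28.9, 28.2 and 32.2 CPM after sc-control, a log2FC of 0.14 ± 0.09 (adjusted p-value of 0.701). In the co-culture the values were 32.97 to 37.7 CPM (median 34.7) and 31.05 to 35.3 CPM (median 34.3), a log2FC of 0.06 ± 0.04 (adjusted p-value of 0.477). The groups overlapped in both. In microglia, at the lower level of 31.2, 19.6, 24.1 and 24.8 CPM against 21.1, 19.7, 14.2 and 12.5 CPM, Cmpk2 rose by a log2FC of 0.59 ± 0.13 (adjusted p-value of 0.0405), with 3 treated libraries above all controls.

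Ifi44 was the least expressed of the 8, with 22 to 207 counts per library. The PFC libraries gave 2.86, 3.11 and 6.81 CPM against 2.37, 1.37 and 4.66 CPM, the microglia libraries 2.31, 2.19, 2.68 and 2.39 CPM against 2.22, 2.197, 1.60 and 1.14 CPM, and the co-culture 1.54 to 2.94 CPM (median 2.21) against 0.717 to 2.40 CPM (median 1.67). All 3 pairs of groups overlapped. Its log2FC was 0.60 ± 0.42, 0.47 ± 0.17 and 0.52 ± 0.18, with adjusted p-values of 0.718, 0.555 and 0.188. Its PFC log2FC ranged from 0.074 (without treated replicate 3) to 1.17 (without control replicate 4) over the fits without 1 mouse. Both of these libraries were of sequencing lane 7. Within lane 6 alone the log2 difference between treatments was 0.59, and within lane 7 it was 0.50. With the lane as a block the log2FC was 0.60.

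**Figure D3:**
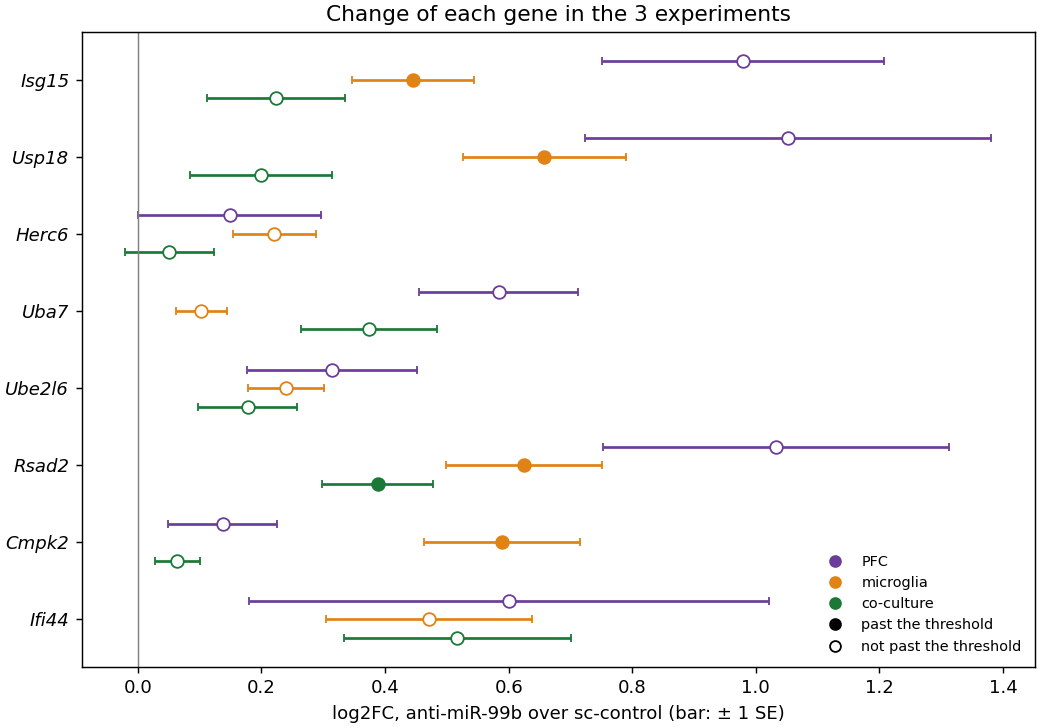
The log2FC of the 8 genes (points, bars of ± 1 SE) in PFC tissue, microglia and co-culture, filled where the gene passed the threshold of its experiment. All 24 points lie above 0. Filled points are Isg15, Usp18, Rsad2 and Cmpk2 in microglia and Rsad2 in the co-culture.

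Counted together, all 8 genes had a positive log2FC in each of the 3 experiments. In PFC tissue (adjusted p-value under 0.1 and log2FC over 0.2) 0 of the 8 passed, where 0.0864% of the 17364 genes tested passed in this direction. At an unadjusted p under 0.05 there were 5 of 8, against 5.17% of all genes in this direction. Their median log2FC was 0.59, that of all genes 0.0025, and 3 of the 8 had groups that did not overlap, against 7.52% of all genes. For 3 libraries against 3 an exact permutation test cannot give a p-value below 0.1. With the DESeq2 Wald test 3 of the 8 passed (Isg15, Uba7 and Rsad2), against 0.348% of all genes.

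The sequencing lane, which the labels give in the names of the read files, moved with these values in PFC tissue. Lane 7 held 1 mouse of each group, so lane and mouse cannot be told apart. The summed microglia markers were also highest of their group in control replicate 4 (540 CPM). In treated replicate 3 they were not (520 CPM, against 551 CPM in treated replicate 2). The library of lane 7 was the highest of its group for all 8 genes in both groups, and the mean of the 8 lay 0.37 (treated mouse, replicate 3) and 0.34 (control mouse, replicate 4) above its group on the log2 scale. Within lane 6 (2 libraries against 2) the log2 difference between treatments ran from 0.05 to 1.03 with a median of 0.59, and within lane 7 (1 against 1) from 0.16 to 1.34 with a median of 0.49, positive for all 8 in both. With the lane as a block, Isg15 (adjusted p-value of 0.0307), Usp18 (0.00992), Uba7 (0.0501) and Rsad2 (0.0632) passed, against 0.420% of all genes, and their log2FC stayed between 0.59 and 1.07. Without sc-control replicate 4, Isg15, Usp18 and Uba7 passed (3 of 8), against 1.11% of all genes in that fit.

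In microglia (adjusted p-value under 0.1 and log2FC over 0.1) 4 of the 8 passed, where 0.435% of the 14953 genes tested passed in this direction. All 8 had an unadjusted p under 0.05, against 3.40% of all genes in this direction, and their median log2FC was 0.46, that of all genes 0.0025. In 0 of the 8 were the groups free of overlap, against 1.65% of all genes. Within lane 5 (2 libraries against 2) the log2 differences ran from 0.02 to 0.33 with a median of 0.13, and within lane 6 (2 against 2) from 0.16 to 0.89 with a median of 0.69, again positive for all 8 in both. With the lane as a block 5 passed, Ube2l6 being the addition (adjusted p-value of 0.0802), against 0.461% of all genes. The calls depended on which libraries were in the fit. When control library 4 or 6 was left out, 0 of the 8 passed, against 0.0% and 0.0399% of all genes in this direction. The same held without treated library 1 or 5, against 0.073% and 0.0132% of all genes. Without treated library 4 only Usp18 passed (against 0.186%), and without control library 2 all 8 did (against 1.55%). Each log2FC stayed positive in these fits. The DESeq2 Wald test gave adjusted p-values from 0.184 to 1.00 and 0 of 8 past the threshold, where 0.245% of all genes passed. By the exact two-sided permutation test of the mean CPM, 1 of 24 such tests for each gene and experiment and not adjusted, the 8 p-values were between 0.0571 and 0.171, where 0.0286 is the smallest possible.

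In the co-culture (adjusted p-value under 0.05 and log2FC over 0.1) Rsad2 alone passed, 1 of 8, where 0.846% of the 16193 genes tested passed in this direction. At an unadjusted p under 0.05 there were 4 of 8, against 6.40% of all genes in this direction, with a median log2FC of 0.21 beside 0.0025 for all genes. No gene of the 8 had groups free of overlap, against 0.303% of all genes. By the same exact permutation test the p-value was 0.00186 for Rsad2, 0.00497 for Uba7 and 0.0395 for Ifi44, and between 0.0699 and 0.517 for the other 5. Within lanes, 3 of the 8 log2 differences were positive in lane 4 (2 libraries against 2), 7 in lane 5 (1 against 3), 6 in lane 6 (1 against 1) and 8 in lane 7 (3 against 2), and Rsad2, Uba7 and Ifi44 were positive in all 4. With the lane as a block the adjusted p-value of Rsad2 was 0.0591 and 0 of the 8 passed, against 0.525% of all genes.

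**Figure D4:**
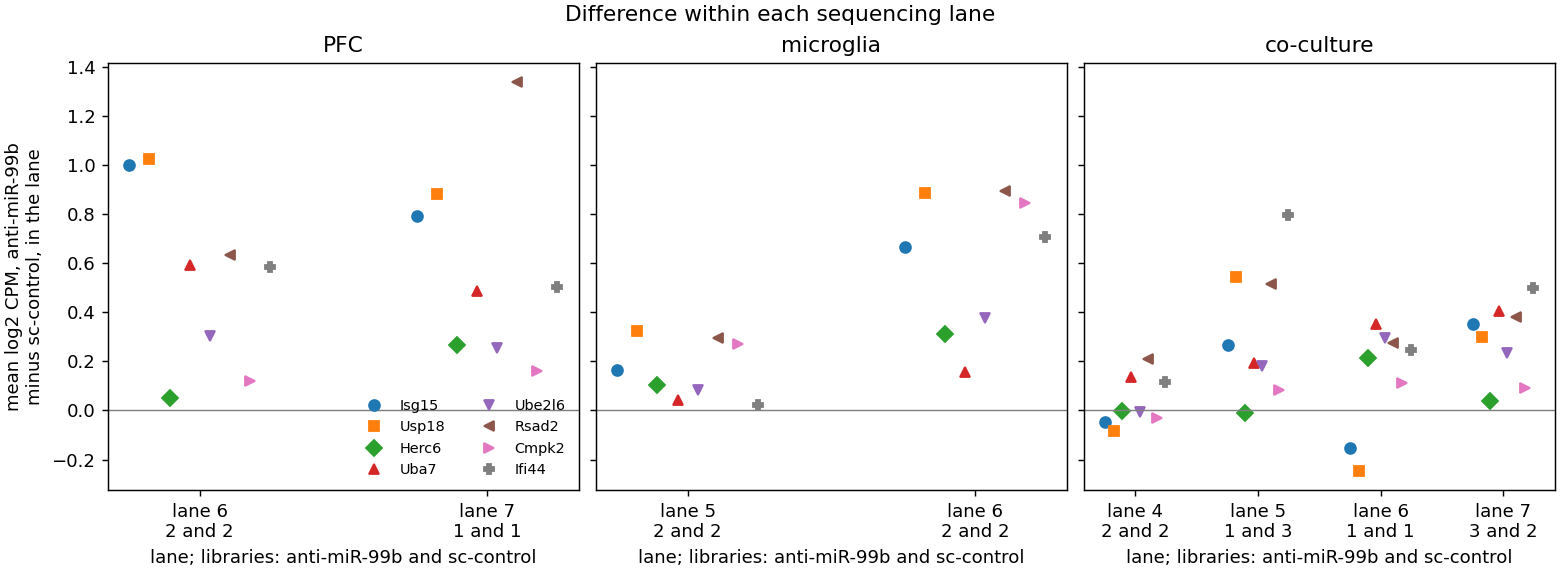
Difference in mean log2 CPM between anti-miR-99b and sc-control within each sequencing lane, for the 8 genes, with the number of libraries of each treatment under the lane. In PFC tissue and microglia all points lie above 0, those of microglia lane 5 no higher than 0.33, while in lane 4 of the co-culture 5 of 8 lie below 0.

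Whether the response differed between experiments was tested with interaction terms in a joint fit of all 29 libraries. None of the 8 genes passed an adjusted p-value under 0.05 in any of the 3 contrasts, where 0.469% (PFC tissue against microglia), 0.791% (PFC tissue against co-culture) and 0.0844% (microglia against co-culture) of 18963 genes did. At an unadjusted p under 0.05 there were 3, 3 and 1 of the 8, against 2257, 2841 and 1042 of the 18963 genes, in either direction. Uba7 came nearest for PFC tissue against microglia, with a difference in log2FC of 0.47 ± 0.12 (SE), an interval of ± 2 SE from 0.23 to 0.70 and an adjusted p-value of 0.0587. For Cmpk2 the log2FC in microglia exceeded that in the co-culture by 0.54 ± 0.13 (interval 0.28 to 0.80, adjusted p-value of 0.112), and that in PFC tissue was below the microglial one (-0.46 ± 0.16, adjusted p-value of 0.195). For Isg15 the difference between PFC tissue and co-culture was 0.76 ± 0.24 (interval 0.28 to 1.23, adjusted p-value of 0.119). The intervals for Rsad2 and Usp18 between PFC tissue and microglia, -0.14 to 0.96 and -0.27 to 1.05, were too wide to show whether these genes responded alike.

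Within groups the 8 genes went up and down together from library to library. Each gene's log2 CPM was set against the mean of its own group, so that the treatment did not enter. In PFC tissue (6 libraries) Pearson's r of these deviations over the 28 pairs of genes ran from 0.45 to 0.98 with a median of 0.79. The lane 7 library, the highest of both PFC groups for all 8 genes, enters each of these values. In microglia (8 libraries) r ran from 0.48 to 0.97 with a median of 0.82. In the co-culture (15 libraries) the pairs were looser, from -0.12 to 0.81 with a median of 0.47. Ube2l6 and Cmpk2 followed the other 7 genes least there, with r of 0.13 and 0.50, whereas in microglia Cmpk2 followed them most closely (0.99). Lane and depth differ between libraries and are common to all 8 genes of a library. These values describe the libraries without a test, and r for pairs of other genes was not set beside them.

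**Figure D5:**
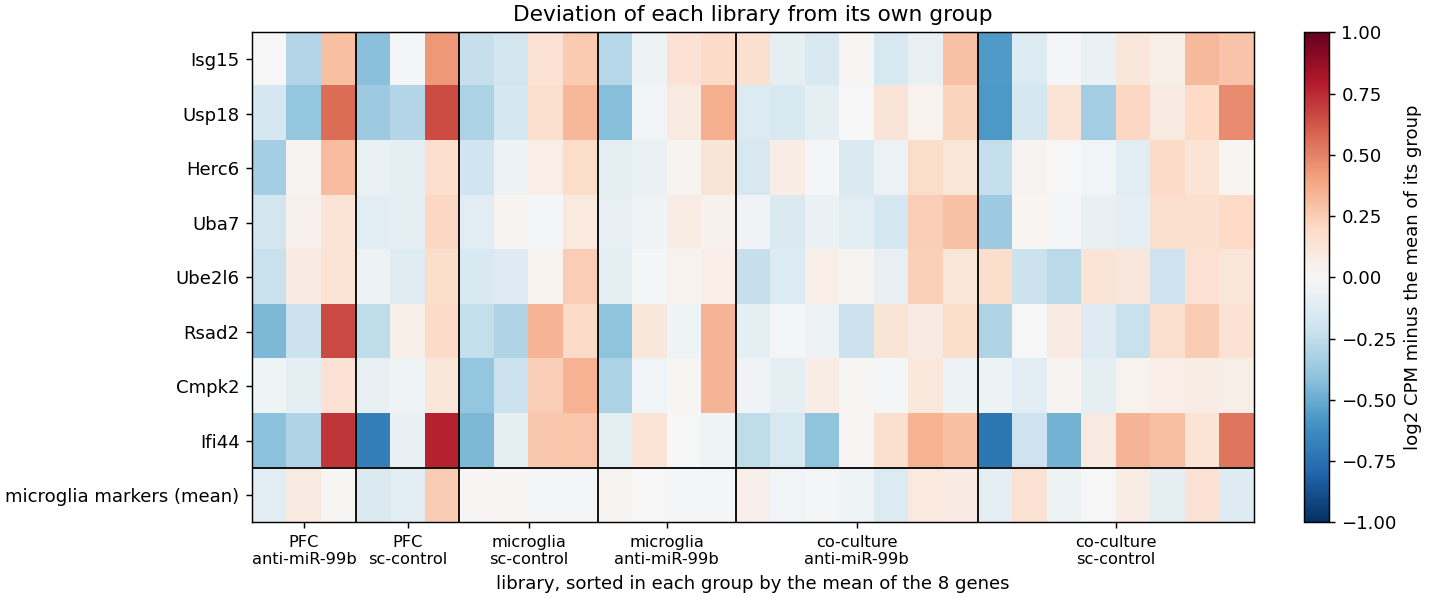
Deviation of log2 CPM from the mean of the own group (colour, log2 units) for the 8 genes and for the mean of 10 microglia markers in 29 libraries, sorted in each group by the mean of the 8 genes. Columns are mostly of one colour for the 8 genes in PFC tissue and microglia, and the marker row is nearly white in microglia.

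Among 13642 other genes tested in all 3 experiments, those whose deviations were most like the mean of the 8 over the 29 libraries were Ifit1 (r of 0.92), Ddx58 (0.91), Irgm1 (0.88), Ifit3b (0.88) and Rnf213 (0.88). Ifit1 and Ifit3b encode interferon-induced proteins that bind viral RNA, Ddx58 the RNA sensor RIG-I, Irgm1 an interferon-induced GTPase and Rnf213 a large ubiquitin ligase. Reads of Ifit3b can be shared with its near-identical paralogue Ifit3. In microglia these 5 rose, by log2FCs of 0.69, 0.39, 0.29, 0.77 and 0.34 with adjusted p-values between 0.0106 and 0.0322, and in PFC tissue their log2FCs were 1.21, 0.68, 0.46, 0.76 and 0.67 without passing (adjusted p-values between 0.505 and 0.660). In the co-culture they were between 0.03 and 0.19, and none passed.

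The pathway upstream of these genes was described with 17 genes of interferon signalling, of which 15 were tested in each experiment. In microglia 3 of the 15 rose and 0 fell. Irf7, the transcription factor that amplifies interferon production, rose from 34.4 ± 6.8 to 53.2 ± 8.8 CPM (SD, n = 4 and 4, log2FC 0.65 ± 0.11, adjusted p-value of 0.0106). Stat2, which carries the signal from the receptor to the response element, rose by a log2FC of 0.33 ± 0.07 (adjusted p-value of 0.0405). The receptor genes Ifnar1 and Ifnar2 each had a log2FC of 0.02 ± 0.03. In PFC tissue and in the co-culture 0 of the 15 passed in either direction, with Irf7 at 1.07 ± 0.24 (adjusted p-value of 0.286) and 0.54 ± 0.14 (adjusted p-value of 0.0577). The median log2FC of the list was 0.13, 0.03 and 0.05 in PFC tissue, microglia and co-culture. Of the interferon genes the list held only Ifnb1 and Ifng, which were too low to be tested, with group means of at most 0.0233 CPM. Other interferon genes were not examined.

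Of 30 further interferon-stimulated genes, 1 of 29 tested passed in PFC tissue (Mx2, an antiviral GTPase, from 2.30 ± 0.38 to 6.29 ± 1.2 CPM, SD, n = 3 and 3, log2FC 1.45 ± 0.18, adjusted p-value of 0.0320). In microglia 21 of 29 rose, and those with the smallest p-values were Zbp1, a sensor of Z-form nucleic acids (log2FC 0.61 ± 0.10, adjusted p-value of 0.0106), Eif2ak2 (0.27 ± 0.05, adjusted p-value of 0.0115) and Oas1a (0.40 ± 0.07, adjusted p-value of 0.0219). In the co-culture 1 of 27 rose (Parp14, log2FC 0.39 ± 0.08, adjusted p-value of 0.0113). The medians of this list were 0.71, 0.39 and 0.19, beside 0.59, 0.46 and 0.21 for the 8 genes. All tested genes of the list were positive in each experiment.

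The constitutive relatives of the 8 genes had log2FCs centred near 0. This list of 18 genes holds ubiquitin and NEDD8 genes, E1 enzymes of ubiquitin and NEDD8, related E2 and E3 enzymes, Herc1 to Herc4, general deubiquitinases and Cmpk1. In PFC tissue 6 of 18, in microglia 9 and in the co-culture 12 had a positive log2FC, and the medians were -0.04, -0.01 and 0.01. No gene of the list passed in PFC tissue or microglia. In the co-culture Herc1, a giant HERC-family ligase, fell from 286 ± 11 to 266 ± 6.1 CPM (SD, n = 8 and 7, log2FC -0.11 ± 0.02, adjusted p-value of 0.0229).

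Markers of cell types were read beside these results. In PFC tissue 10 neuron markers summed to between 9346 and 10163 CPM, and in the co-culture to between 8073 and 8390 CPM. In the microglia libraries 10 microglia markers summed to between 9135 and 9592 CPM and the neuron markers to between 130 and 145 CPM. Astrocyte markers summed to between 281 and 330 CPM there, and oligodendrocyte markers to between 263 and 302 CPM. In the co-culture astrocyte markers summed to between 2514 and 2728 CPM. Neuron markers were thus high in PFC tissue and co-culture, and microglia markers in the microglia libraries. Microglia markers in the microglia libraries had a median log2FC of 0.02 over 9 tested, and 0 passed in either direction. In PFC tissue 9 of the 10 were positive with 0 past the threshold, and their median log2FC was 0.22. At an unadjusted p under 0.05 by edgeR's quasi-likelihood test 3 of the 10 were higher, against 5.17% of all genes in this direction. The sum of these markers ran from 486 to 551 CPM after anti-miR-99b and from 413 to 540 CPM after sc-control. In the co-culture their sum ran from 98.0 to 117 CPM after anti-miR-99b and from 89.5 to 111 CPM after sc-control. Of the 9 tested there, 8 were positive, with a median log2FC of 0.12. Past the threshold 3 of 9 rose, namely Csf1r (log2FC 0.34 ± 0.05, adjusted p-value of 0.00101), Trem2 (0.70 ± 0.11, adjusted p-value of 0.00113) and Cx3cr1 (0.39 ± 0.08, adjusted p-value of 0.0107). The part of these markers in the values of the 8 genes in PFC tissue and co-culture was not tested.

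Of 14 markers of peripheral immune and blood cells, 9 were tested in PFC tissue, 8 of them positive with 0 past the threshold. Their median log2FC was 0.37, and 3 of the 9 were higher at an unadjusted p under 0.05 by the same test. The sum of the 14 ran from 60.0 to 107 CPM after anti-miR-99b and from 66.4 to 80.0 CPM after sc-control. In microglia and co-culture they summed to at most 6.16 and 1.24 CPM. Among the neuron, astrocyte, endothelial and fibroblast markers none passed in any experiment.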

How the data were processed

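Poly(A) RNA of 6 PFC, 8 microglia and 15 co-culture libraries had been sequenced as single reads. Per the labels and the methods of the study, the authors made the deposited counts, whole numbers of reads per Ensembl gene without normalisation, with bcl2fastq 2.20.2, FastQC 0.11.5, STAR 2.5.2b and featureCounts 1.5.1 on mm10. The annotation and the strand setting are not given in the sources used here, so reads of overlapping genes may be shared.

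Symbols, positions and exon lengths were taken from GENCODE M21 (48349 of 48709 identifiers matched). Counts were analysed with edgeR 4.0.16 in R 4.3.3 (filterByExpr, TMM, quasi-likelihood test, Benjamini-Hochberg adjustment over all genes tested), separately per experiment and jointly for the differences. SEs were obtained from the log2FC and the F statistic, as |log2FC| over the root of F. Log2 CPM values used a pseudocount of 0.5. Scripts were tested on simulated data. DESeq2 1.42.0, other scalings and filters, 1 RUVs factor, lane and replicate blocks and leaving out each PFC and microglia library were tried as alternatives.

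The 8 genes and all lists were chosen with earlier results of these data known. Besides the 8, the genes named are up to 3 per list and experiment that passed, by smallest p-value, and the 5 most like the mean of the 8. Some of the genes so chosen are not reported here. The genes given with values that did not pass (Ifnar1, Ifnar2, Ifnb1, Ifng) and Irf7 outside microglia were chosen after their values were seen. The study calls each n a biological sample but does not say whether the libraries of 1 culture group came from separate preparations. If they did not, their p-values measure only the spread between these libraries, which may be technical. The PFC libraries came from individual mice. Libraries of 1 group differed by more than sampling noise (lowest chi-square per degree of freedom 1.48), so none was treated as a copy.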

Additional observations from a re-analysis of the deposited data

How the results depend on the processing

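The log2FC of the 8 genes in the 3 experiments kept its sign under all alternatives except that of Herc6 in PFC tissue, which ranged from -0.025 to 0.30 over the fits without 1 library each. The number of genes past the threshold was less stable. In PFC tissue it went from 0 to 3 with DESeq2. It went to 4 with no filter on low counts (0.949% of all genes called in this direction), with the RUVs factor (1.11%) and with the lane as a block. When single libraries were left out it ranged from 0 to 3, where the share of all genes ran from 0.00567% to 1.11%. In microglia it went from 4 to 0 with DESeq2 and to 6 with no filter (0.497%) and with the RUVs factor (0.789%). Over the left-out libraries it ranged from 0 to 8, where the share of all genes ran from 0.0% to 1.55%. In the co-culture it went from 1 to 2 with the RUVs factor (1.75%) and to 0 with the lane as a block. Beyond the settings named, the cause was not tested.

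The mean correlation of same-numbered libraries was -0.12, -0.04 and 0.01 in PFC tissue, microglia and co-culture, over 2, 2 and 4 pairs. So few pairs cannot show whether the replicate numbers mark paired samples. With a replicate block over the 4 PFC libraries that could be paired by number 7 of 8 passed, where 2.72% of all genes did, and 7 of 8 when these pairs were crossed (3.16%), an alternative added after seeing the data. The paired fits gave 4 of 8 in microglia (0.576%) and 1 of 8 in the co-culture (0.432%).

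For the differences between experiments, PFC tissue against microglia gave 1 gene with DESeq2, where 133 positive and 130 negative differences passed among 15421 genes. Over the left-out libraries it gave 0 to 1, PFC tissue against co-culture 0 to 2, and microglia against co-culture 0 to 1. Of the 18918 to 19254 genes tested in those fits, 14 to 284, 34 to 508 and 1 to 5 passed with a positive difference. With a negative difference 3 to 700, 10 to 1243 and 9 to 13 passed. Signs turned over the left-out libraries for PFC tissue against microglia in Usp18 (-0.010 to 0.87), Herc6 (-0.27 to 0.067), Ube2l6 (-0.026 to 0.17), Rsad2 (-0.070 to 0.61) and Ifi44 (-0.44 to 0.69), for PFC tissue against co-culture in Herc6 (-0.082 to 0.26), Cmpk2 (-0.014 to 0.13) and Ifi44 (-0.46 to 0.66), and for microglia against co-culture in Ifi44 (-0.21 to 0.097).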
